A study of Mus musculus with 30 samples.

Results

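The acute phase genes Lbp, Saa1, Saa2, Saa3, Lcn2, Hp, C3, Cp and Orm1, together with the coagulation factor gene F5, were followed in 4T1-tdTomato cells across 6 groups of mice. These 10 genes, of 49315 in the count table, were picked by name because Lbp, F5 and Saa2 were among the genes with the largest rises from early to late lung cells. The comparison of late with early lung cells is therefore given only as a description, and it shares its libraries with the other comparisons of lung cells. All 10 genes passed the filter on low counts, as did 17774 genes in all, although Orm1 never exceeded 89 counts in a library.

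The 4T1 line comes from a mammary carcinoma of a BALB/c mouse and here carries the red fluorescent protein tdTomato. The cells were placed in female BALB/c mice, which have an intact immune system and share the line's background, or in female NSG mice, which lack T, B and NK cells but still have neutrophils and macrophages. Tumours grew from 200000 cells placed in the mammary fat pad. Lung cells derived from 500000 cells given by the tail vein. Tumours and lung cells thus came from separate injections, so falls and rises between them are differences between groups. All samples were then sorted as live (DAPI-), CD45- and tdTomato+ single cells. There were 5 libraries in each group: BALB/c tumour at day 21 or 22, NSG tumour at day 10, BALB/c DTC and NSG DTC from the lung at day 7, BALB/c macro-met from the lung at day 21 or 23, and NSG macro-met from the lung at day 19 or 20. The label DTC is not spelled out in the sources used here, and macro-met is the endpoint label. Tumours and lung samples differ at once in site, route and cell number, and the hosts differ in the day at which tumours and macro-mets were taken, so these cannot be told apart from stage or host. Nothing in the labels says that libraries of a group come from separate mice, so p-values measure only the spread between these libraries.

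Acute phase proteins are plasma proteins, made mainly by the liver, whose output changes within hours to days of infection, injury or tumour growth. Interleukin-6 acting through STAT3, and interleukin-1 and TNF acting through NF-kB and C/EBP factors, drive their genes, and glucocorticoids enhance many of them. Epithelia and tumour cells can make several of them too, among them Lcn2, Saa3 and C3. They serve in binding bacterial products (Lbp), lipid transport and leukocyte attraction (Saa1, Saa2, Saa3), withholding iron from microbes (Lcn2), scavenging haemoglobin (Hp), complement (C3), copper transport and iron oxidation (Cp) and binding of small lipophilic molecules (Orm1). F5 encodes coagulation factor V, the cofactor with which factor Xa turns prothrombin into thrombin.

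On GRCm38 with GENCODE M21, Lbp (ENSMUSG00000016024) lies on chromosome 2 from 158306493 to 158332852 and F5 (ENSMUSG00000026579) on chromosome 1 from 164151838 to 164220277. The Saa genes form a cluster on chromosome 7, in which Saa3 (ENSMUSG00000040026) spans 46711998 to 46715700, Saa1 (ENSMUSG00000074115) 46740497 to 46742980 and Saa2 (ENSMUSG00000057465) 46751790 to 46754313. Lcn2 (ENSMUSG00000026822) is on chromosome 2 from 32384633 to 32388252 and C3 (ENSMUSG00000024164) on chromosome 17 from 57203970 to 57228136. The other members are Hp (ENSMUSG00000031722) on chromosome 8 from 109575128 to 109579172, Cp (ENSMUSG00000003617) on chromosome 3 from 19957054 to 20009145 and Orm1 (ENSMUSG00000039196) on chromosome 4 from 63344560 to 63348163. Values are summed per gene, so exons and isoforms were not separated.

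The 3 Saa genes moved together in these libraries, so the stretches just upstream of them are shown, with those of F5 and C3, which followed other patterns. Sequences are from RefSeq on GRCm38.p6, in the direction of the gene, within 250 bases before the RefSeq start and outside the gene as GENCODE gives it. Capitals mark matches to a C/EBP motif, TTNNGNAA, on either strand.

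Saa1, chr7:46742981-46743230, minus strand: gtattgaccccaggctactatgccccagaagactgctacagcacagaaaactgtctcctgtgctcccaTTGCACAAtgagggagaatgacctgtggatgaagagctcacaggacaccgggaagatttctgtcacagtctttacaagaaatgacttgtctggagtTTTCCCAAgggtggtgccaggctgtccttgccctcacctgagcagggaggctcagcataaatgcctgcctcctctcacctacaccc

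Saa2, chr7:46751583-46751789, plus strand: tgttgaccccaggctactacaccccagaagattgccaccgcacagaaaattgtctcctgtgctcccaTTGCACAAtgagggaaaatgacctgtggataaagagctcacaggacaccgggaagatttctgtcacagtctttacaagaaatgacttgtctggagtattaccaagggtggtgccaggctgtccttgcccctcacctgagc

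Saa3, chr7:46715701-46715926, minus strand: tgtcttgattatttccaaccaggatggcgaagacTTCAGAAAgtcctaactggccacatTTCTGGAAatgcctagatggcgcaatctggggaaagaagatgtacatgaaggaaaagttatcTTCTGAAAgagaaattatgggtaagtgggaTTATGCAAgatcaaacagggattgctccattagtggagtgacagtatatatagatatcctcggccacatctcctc

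F5, chr1:164151585-164151834, plus strand: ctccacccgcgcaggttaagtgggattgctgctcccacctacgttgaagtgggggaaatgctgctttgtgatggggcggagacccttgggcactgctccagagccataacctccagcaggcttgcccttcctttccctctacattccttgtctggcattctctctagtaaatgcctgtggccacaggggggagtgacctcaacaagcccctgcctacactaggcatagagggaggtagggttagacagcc

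C3, chr17:57228137-57228386, minus strand: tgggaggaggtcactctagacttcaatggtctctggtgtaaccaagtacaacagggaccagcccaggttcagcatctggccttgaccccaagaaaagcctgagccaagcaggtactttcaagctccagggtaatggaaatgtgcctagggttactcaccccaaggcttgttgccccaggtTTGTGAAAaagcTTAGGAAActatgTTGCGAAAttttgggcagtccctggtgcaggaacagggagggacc

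RefSeq windows were found for 7 of the 10 members (all but Lbp, Hp and Orm1). Over the full 250 bases, the Saa1 and Saa2 windows were 95.6% identical (238 of 249 aligned bases), while Saa3 matched Saa1 at 64.4% and Saa2 at 61.9%. A C/EBP match was present in 6 of the 7 genes (Saa1, Saa2, Saa3, Lcn2, C3 and Cp) and in 36.8% of 32851 mouse windows of the same length. Saa1 and Saa2 share the match TTGCACAA at bases -182 to -175 and -183 to -176, counted from the RefSeq start, Saa1 has another at -86 to -79, Saa3 has 4 and C3 has 3 between -70 and -38. F5 had none. No window of the 7 genes held a STAT motif (TTCNNNGAA, in 7.02% of all windows), an NF-kB motif (7.25%), a glucocorticoid receptor motif (0.387%) or a HIF motif (ACGTG or GCGTG, 38.6%), each searched on both strands. A TATA box (TATAAA, gene strand only, 7.59% of windows) was found in Cp alone, in 1 of its 2 windows, and both of these held a C/EBP match. These are letter matches in short windows, and C/EBP, NF-kB and STAT matches can overlap one another.

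Levels are CPM, read counts relative to the TMM-scaled library size, with n = 5 libraries per group. Changes are on the log2 scale. Their ± SE is approximate, the size of the change divided by the square root of F from edgeR's quasi-likelihood test. Calls were made at an adjusted p (Benjamini-Hochberg, over all genes tested) below 0.05. Total counts were 29832098 to 65621525 per library, so 3 counts, taken as the limit of detection, correspond to 0.0449 to 0.0997 CPM. Within groups, libraries correlated at r = 0.8918 to 0.9867 over genes, and the tumour cell markers Epcam (132 to 748 CPM) and Krt8 (1630 to 4590 CPM) were high in all 30. BALB/c DTC replicates 1 and 2 stood apart by lung epithelium RNA: a sum of 12 markers reached 3730 and 1590 CPM there, against 77.4 to 210 in the other 3 BALB/c DTC libraries and 1.66 to 5.59 in tumours. Results that rest on BALB/c DTC were therefore also computed without them, an alternative added after the data were seen.

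Lbp, whose product hands bacterial lipopolysaccharide to CD14, had a level of its own at each stage, with overlapping hosts. It was chosen for its rise from early to late lung cells, so that part of the order is a description. Its tests of lung cells against tumours use the same lung libraries and are not independent of that choice. BALB/c tumours held 104, 136, 54.3, 62.4 and 146 CPM, and NSG tumours 74.9, 75.5, 76.0, 91.1 and 53.3. At day 7 in the lung the level was 23.1, 35.5, 26.7, 17.4 and 30.1 CPM in BALB/c DTC and 29.8, 17.3, 16.6, 14.6 and 8.94 in NSG DTC. Macro-mets held 541, 743, 673, 830 and 791 CPM in BALB/c and 796, 570, 600, 623 and 684 in NSG mice. All 10 DTC libraries lay below all 10 tumours, and all 10 tumours below all 10 macro-mets, while the 2 hosts overlapped at each stage. Against tumours of the same host, Lbp fell in DTC by 1.92 on the log2 scale in BALB/c (SE 0.26, adjusted p = 1.57e-06) and by 2.08 in NSG mice (SE 0.26, adjusted p = 2.99e-06). It rose in macro-mets by 2.83 ± 0.27 (adjusted p = 1.61e-08) and 3.14 ± 0.27 (adjusted p = 4.19e-09). No host difference was called: 0.44 ± 0.25 in tumours, 0.60 ± 0.26 in DTC (adjusted p = 0.0643) and 0.13 ± 0.25 in macro-mets. The DTC difference was called by DESeq2 (0.63, adjusted p = 0.0266), without NSG DTC replicate 1 (0.90, adjusted p = 0.00552) and without BALB/c DTC replicate 4 (0.71, adjusted p = 0.0381).

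F5 shared the high macro-met level but had opposite host differences in tumours and DTC. It too was picked for its rise from early to late lung cells. Its tests that use lung libraries are therefore not independent of that choice. BALB/c tumours held 23.7, 12.2, 13.7, 4.39 and 17.4 CPM and NSG tumours 7.37, 2.06, 2.99, 4.22 and 3.56. BALB/c DTC held 2.24, 2.85, 1.83, 2.45 and 0.0859 CPM (the last from 5 counts), and NSG DTC 8.13, 6.30, 6.75, 6.32 and 3.78. Macro-mets held 19.0, 30.3, 69.8, 154 and 81.7 CPM in BALB/c and 32.9, 21.1, 27.4, 51.5 and 41.9 in NSG mice. Every BALB/c DTC library lay below every NSG DTC library and below every BALB/c tumour. In BALB/c mice F5 fell from tumour to DTC (-2.94 ± 0.57, adjusted p = 0.000153), whereas the NSG value was 0.63 ± 0.52 (adjusted p = 0.409), and the host difference of this change was itself called (-3.57 ± 0.77, adjusted p = 0.000651). BALB/c was higher in tumours (1.82 ± 0.53, adjusted p = 0.013) and lower in DTC (-1.75 ± 0.55, adjusted p = 0.0123). With offsets for GC content and length the DTC difference was -1.31 (adjusted p = 0.0681), and with limma voom the host differences were 1.79 in tumours (adjusted p = 0.0631) and -2.61 in DTC (adjusted p = 0.0544). On log2(TPM + 1), a scale that understates changes of low genes, the BALB/c fall was -1.79, the DTC host difference -1.13 and the host difference of the change -2.38, while limma voom gave -3.66 for the first and -4.4 for the last, all 5 called. In macro-mets F5 was above tumours in both hosts (2.31 ± 0.53, adjusted p = 0.00118, and 3.11 ± 0.55, adjusted p = 0.000127), and the hosts did not differ by the test there (1.02 ± 0.51, adjusted p = 0.333).

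The serum amyloid A genes were set apart by both host and stage: each was higher in BALB/c than in NSG tumours and DTC, and each rose in macro-mets. Saa2 was picked for its rise from early to late lung cells, so its tests that use lung libraries are not independent of that choice. The Saa2 level was 13.1, 12.0, 12.2, 6.03 and 15.9 CPM in the BALB/c tumours and 0.945, 0.532, 1.34, 1.10 and 0.855 in NSG tumours. In DTC it stood at 2.12, 3.15, 1.15, 4.98 and 6.17 CPM in BALB/c and at 1.61, 1.15, 0.518, 1.21 and 0.227 in NSG mice. In macro-mets it stood at 11.8, 21.9, 37.5, 113 and 82.2 CPM in BALB/c and at 7.21, 6.82, 10.9, 18.9 and 4.89 in NSG mice. The tumour groups of the 2 hosts did not overlap, DTC and macro-mets of the 2 hosts did, and every NSG macro-met lay above every NSG tumour. Against NSG, Saa2 in BALB/c was higher by 3.61 ± 0.57 in tumours (adjusted p = 2.73e-05), 1.88 ± 0.54 in DTC (adjusted p = 0.00655) and 2.46 ± 0.52 in macro-mets (adjusted p = 0.0055). It rose from tumour to macro-met by 2.17 ± 0.51 in BALB/c (adjusted p = 0.00157) and 3.32 ± 0.56 in NSG mice (adjusted p = 6.82e-05). From tumour to DTC it fell in BALB/c (-1.75 ± 0.51, adjusted p = 0.00784), which was -1.53 with adjusted p = 0.0576 without the 2 lung-rich libraries, and the NSG value was -0.02 ± 0.56. The host difference in DTC was 1.93 (adjusted p = 0.194) with limma voom and 1.02 (adjusted p = 0.0687) on log2(TPM + 1).

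Saa1, the other circulating serum amyloid, ran with Saa2. In BALB/c mice it ranged from 4.11 to 7.89 CPM in tumours, 0.63 to 4.48 in DTC and 5.63 to 49 in macro-mets. In NSG mice it ranged from 0 to 0.672 CPM in tumours (0 counts in replicate 2, where 3 counts are 0.0997 CPM), 0.227 to 0.709 in DTC and 2.37 to 9.57 in macro-mets. The host difference was called at every stage, at 4.27 ± 0.69 in tumours (adjusted p = 3.83e-05), 2.17 ± 0.65 in DTC (adjusted p = 0.00843) and 2.44 ± 0.60 in macro-mets (adjusted p = 0.0199). The DTC difference was 1.52 (adjusted p = 0.0654) without BALB/c DTC replicate 4, 0.77 (adjusted p = 0.158) on log2(TPM + 1) and 1.83 (adjusted p = 0.274) with limma voom. The macro-met difference lost its call without any 1 of 6 libraries, BALB/c replicates 4 and 5 and NSG replicates 1, 2, 3 and 5, where it lay between 2.07 and 2.43 (adjusted p = 0.051 to 0.0898), and with no filter on low counts (adjusted p = 0.0538). Saa1 rose from tumour to macro-met in both hosts (2.02 ± 0.59, adjusted p = 0.00856, in BALB/c and 3.85 ± 0.68, adjusted p = 0.000117, in NSG mice). From tumour to DTC it fell in BALB/c (-1.78 ± 0.60, adjusted p = 0.0185), at -2.44 without BALB/c DTC replicate 4 and at -1.33 with adjusted p = 0.126 without the 2 lung-rich libraries.

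Saa3, the form made locally by macrophages, fat and epithelia, had BALB/c ranges of 6.8 to 17.6 CPM in tumours, 1.4 to 11.4 in DTC and 16.9 to 112 in macro-mets. The NSG ranges were 0.831 to 2.61 CPM in tumours, 0.397 to 1.68 in DTC and 7.47 to 46.5 in macro-mets. It rose from tumour to macro-met in BALB/c (2.51 ± 0.56, adjusted p = 0.000912) and in NSG mice (3.24 ± 0.59, adjusted p = 0.000174, or 2.34 without NSG macro-met replicate 4, which alone held 46.5). It was higher in BALB/c by 2.64 ± 0.58 in tumours (adjusted p = 0.00135) and 2.71 ± 0.60 in DTC (adjusted p = 0.000574, or 0.065 with limma voom at 2.60). In macro-mets the host difference of 1.91 ± 0.55 missed the threshold (adjusted p = 0.0546), and it was called with RLE scaling (1.95), by DESeq2 (1.94, adjusted p = 0.0207), by limma voom (2.03, adjusted p = 0.00845), on log2(TPM + 1) (1.86) and without NSG macro-met replicate 4 (2.80, adjusted p = 0.00267) or BALB/c macro-met replicates 1 (2.19) or 2 (2.17). The change from tumour to DTC was not called in either host (-0.76 ± 0.54 and -0.83 ± 0.59).

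On log2(TPM + 1) the Saa changes were smaller and still called between tumours (2.52 for Saa1 and 2.71 for Saa2), from NSG tumour to macro-met (2.13, 2.42 and 2.43 for Saa1, Saa2 and Saa3) and for Saa3 between DTC (1.61).

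Saa1 and Saa2 counts carry some uncertainty because the genes are near copies. Their longest reading frames, of 369 bases each, were identical at 351 positions (95.1%), and 14.7% of the 50-base stretches of Saa1 also occurred in Saa2. Saa3 shared 2.81% of such stretches with Saa1 (9 of 320). Saa2 made up 50 to 100% of the sum of Saa1 and Saa2 CPM over all libraries, with group medians of 62.5 to 76.6%. How reads that match both genes were counted is not given in the sources used here.

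Lcn2 encodes lipocalin 2, which binds the iron carriers of bacteria, and it had the highest median level per length of the 10 genes (526 TPM, from 98.3 to 1680). It was higher in BALB/c than in NSG mice at all 3 stages. BALB/c tumours held 854, 1330, 857, 683 and 1260 CPM and NSG tumours 280, 230, 234, 344 and 233. BALB/c DTC held 428, 426, 363, 973 and 535 CPM and NSG DTC 200, 116, 171, 116 and 89.5. BALB/c macro-mets held 888, 1110, 963, 1460 and 1400 CPM and NSG macro-mets 503, 419, 492, 713 and 574. The hosts did not overlap at any stage, and the 3 NSG stages did not overlap one another, with DTC lowest and macro-mets highest. The host differences were 1.91 ± 0.25 in tumours (adjusted p = 1.6e-06), 1.98 ± 0.25 in DTC (adjusted p = 7.22e-07) and 1.11 ± 0.24 in macro-mets (adjusted p = 0.00782). Lcn2 fell from tumour to DTC in both hosts (-0.87 ± 0.24, adjusted p = 0.00505, and -0.93 ± 0.24, adjusted p = 0.00522), and the BALB/c value was -0.69 with adjusted p = 0.0567 without the 2 lung-rich libraries. It rose in macro-mets over tumours in NSG mice (1.03 ± 0.24, adjusted p = 0.00192), and in BALB/c mice the value was 0.22 ± 0.24 (adjusted p = 0.486).

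C3, the central complement component, also differed between hosts throughout but did not share the macro-met rise. BALB/c tumours held 612, 1130, 434, 224 and 1100 CPM and NSG tumours 164, 115, 157, 190 and 172. BALB/c DTC held 710, 724, 549, 1670 and 1190 CPM and NSG DTC 243, 201, 148, 204 and 187. BALB/c macro-mets held 347, 257, 306, 435 and 327 CPM and NSG macro-mets 118, 105, 100, 153 and 107. No BALB/c library lay below an NSG library of the same stage. BALB/c was higher by 2.13 ± 0.32 in tumours (adjusted p = 1.32e-05), 2.30 ± 0.32 in DTC (adjusted p = 2.63e-06) and 1.52 ± 0.31 in macro-mets (adjusted p = 0.00419). From tumour to macro-met C3 fell in BALB/c (-1.06 ± 0.31, adjusted p = 0.00783), with -0.77 on both TPM scales (adjusted p = 0.0637 and 0.0614), and the NSG value was -0.45 ± 0.31 (adjusted p = 0.283). With only the libraries of the groups compared the NSG fall was called (-0.51, adjusted p = 0.0054).

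Cp encodes ceruloplasmin, the copper ferroxidase of plasma, and was abundant in tumours of both hosts, with the lowest group mean in BALB/c DTC. BALB/c tumours held 920, 1080, 1110, 552 and 1100 CPM and NSG tumours 797, 503, 540, 655 and 573. BALB/c DTC held 456, 300, 328, 402 and 114 CPM and NSG DTC 1090, 762, 1040, 729 and 738. BALB/c macro-mets held 413, 408, 654, 786 and 688 CPM and NSG macro-mets 454, 415, 245, 325 and 572. Every BALB/c DTC library lay below every NSG DTC library and every BALB/c tumour. Cp fell from tumour to DTC in BALB/c (-1.57 ± 0.28, adjusted p = 4.96e-05), the NSG value was 0.51 ± 0.27 (adjusted p = 0.177), and the host difference of the change was called (-2.08 ± 0.39, adjusted p = 0.000141). In DTC Cp was lower in BALB/c (-1.45 ± 0.28, adjusted p = 0.000115). Offsets for GC content and length reduced the host difference of the change to -0.70 (adjusted p = 0.0487), took the DTC difference to -0.43 (adjusted p = 0.0899) and turned the NSG change to -0.33 (adjusted p = 0.21). The fall from BALB/c tumour to macro-met (-0.69 ± 0.27, adjusted p = 0.0447) lost its call without any 1 of 7 libraries, BALB/c tumour replicates 1, 2, 3 and 5 and macro-met replicates 1, 2 and 3 (-0.74 to -0.59, adjusted p = 0.051 to 0.107), with no filter on low counts (adjusted p = 0.0769) and on both TPM scales (-0.62), and was -0.04 with those offsets. No other Cp difference was called in the reported fit. That of tumours between hosts (0.63 ± 0.27, adjusted p = 0.0904) was called by DESeq2 (0.66) and without BALB/c tumour replicate 4 (0.78, adjusted p = 0.0322). That of NSG macro-mets against tumours (-0.61 ± 0.27, adjusted p = 0.0887) was called by DESeq2 (-0.65) and without NSG macro-met replicate 5 (-0.81, adjusted p = 0.0324). With only the libraries of the groups compared, both were called (0.66, adjusted p = 0.0164, and -0.67, adjusted p = 0.0126). The NSG change from tumour to DTC was called there too (0.44, adjusted p = 0.0254).

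Hp encodes haptoglobin, which captures free haemoglobin, and its BALB/c DTC level rested on the 2 lung-rich libraries. BALB/c DTC held 27.6 and 12.0 CPM in these and 1.92, 2.81 and 1.74 in the others, and NSG DTC held 1.25, 0.775, 0.846, 0.505 and 0.738. BALB/c tumours held 7.00, 13.6, 3.64, 4.22 and 10.8 CPM and NSG tumours 0.840, 1.93, 6.08, 2.16 and 1.14. BALB/c macro-mets held 3.57, 10.1, 16.7, 33.2 and 23.5 CPM and NSG macro-mets 6.64, 7.47, 10.7, 17.9 and 6.05. In the plot of lung epithelium markers the 2 lung-rich libraries had the highest marker sums. The highest Hp, 33.2 CPM in BALB/c macro-met replicate 4, came with a marker sum of 48 CPM. The part of lung cells in Hp was not tested. The host difference in DTC was 3.48 ± 0.72 (adjusted p = 0.000305) with all libraries, 2.47 without BALB/c DTC replicate 1 and 1.39 (adjusted p = 0.0734) without both lung-rich libraries. Likewise the BALB/c change from tumour to DTC was 0.23 ± 0.64 (adjusted p = 0.8) with all libraries and -1.88 (adjusted p = 0.0198) without these 2. In NSG mice Hp rose from tumour to macro-met (1.99 ± 0.67, adjusted p = 0.0245, or 2.64 without NSG tumour replicate 3), a call lost without any 1 of 5 libraries, NSG tumour replicates 1, 2, 4 and 5 and macro-met replicate 4 (1.63 to 1.92, adjusted p = 0.0535 to 0.0805), with no filter on low counts (2, adjusted p = 0.0571) and with offsets for GC content and length (1.75, adjusted p = 0.0553). The difference between tumours of the hosts, 1.68 ± 0.66 (adjusted p = 0.0656), was called by DESeq2 (1.70, adjusted p = 0.0396) and without NSG tumour replicate 3 (2.37, adjusted p = 0.016) or BALB/c tumour replicate 4 (1.84, adjusted p = 0.0498). It was also called with only the libraries of the groups compared (1.70, adjusted p = 0.0339) and on log2(TPM + 0.1) (1.83, adjusted p = 0.0407).

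**Figure D1:**
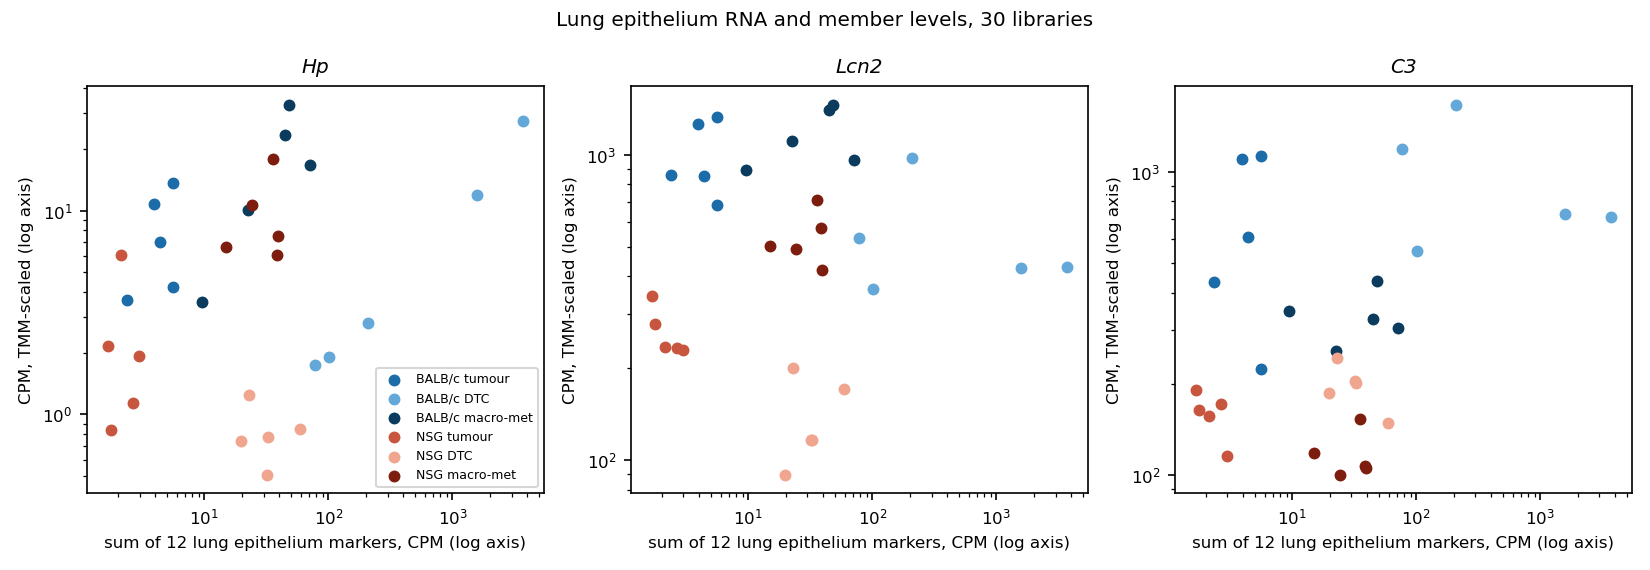
Hp, Lcn2 and C3 (CPM, log axis) against the summed level of 12 lung epithelium markers (CPM, log axis) in the 30 libraries, coloured by group. The 2 BALB/c DTC libraries at 3730 and 1590 CPM of lung markers hold 27.6 and 12 CPM of Hp, while their Lcn2 (428 and 426 CPM) and C3 (710 and 724 CPM) lie within the range of the other 3 BALB/c DTC libraries.

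Orm1 encodes orosomucoid, a plasma carrier of lipophilic compounds, and was close to the limit of detection. More than 21 counts were found in 3 libraries, with 89 in BALB/c tumour replicate 4, 67 in NSG macro-met replicate 3 and 34 in NSG tumour replicate 3. No comparison called it (SE 1.02 to 1.07 for differences between groups). Its coding sequence is 89.9% identical to that of Orm2, so counts this low may be shared between the copies.

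Across the tumours of the 2 hosts, 6 of the 10 genes were called higher in BALB/c (Saa1, Saa2, Saa3, F5, Lcn2 and C3) and none lower. Of all genes tested, 23.6% were called in this comparison, 11% as higher and 12.6% as lower in BALB/c. For 5 of them, Saa1, Saa2, Saa3, Lcn2 and C3, the hosts did not overlap, as was true of 6.79% of all genes in that direction, and none of the 10 was lower without overlap (8.98% of all genes). The median change was 1.87 over the 10 genes and 0.08 over all genes. The tumours also differed in day, 21 or 22 against 10, which cannot be told apart from host. A sum of 12 neutrophil markers was 19.8 to 219 CPM in BALB/c and 8.4 to 16.3 in NSG tumours. Of these markers, Ltf held 17.2 to 215 CPM in BALB/c and 6.95 to 11.4 in NSG tumours, and the granule gene Ngp was at 0 in all 10 tumours. A sum of 8 mammary tumour cell markers was 5990 to 7150 CPM in BALB/c and 8600 to 9060 in NSG tumours, without overlap. The part of other cells in these differences was not tested.

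Between DTC of the 2 hosts, which share day, site and cell number, 6 genes were called higher in BALB/c (Saa1, Saa2, Saa3, Lcn2, Hp and C3) and 2 lower (F5 and Cp). Of all genes tested, 38.8% were called, 17.1% higher and 21.7% lower. Without overlap, Lcn2, C3 and Hp were higher and F5 and Cp lower (12.3% and 19.3% of all genes). The medians were 1.93 for the 10 genes and -0.01 for all. With limma voom only 3 of the 10 genes were called, Lcn2, C3 and Cp, because the 3 Saa genes, F5 and Hp missed the threshold (adjusted p = 0.0504 to 0.274). Without the 2 lung-rich libraries 7 were called, with Hp lost. The neutrophil sum was 22.2 to 80.6 CPM in BALB/c and 4.18 to 15 in NSG DTC, and the macrophage sum 21.3 to 645 and 31.1 to 80.6. The lung epithelium list moved most: all 11 of its tested markers were called higher in BALB/c DTC, with a median of 4.63, and its sum was 77.4 to 3730 CPM against 19.8 to 59.5 in NSG DTC. These sums did not overlap, also without the 2 lung-rich libraries. The part of these cells in the differences was not tested.

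Between macro-mets, where few genes differed, 4 of the 10 were called higher in BALB/c (Saa1, Saa2, Lcn2 and C3) and none lower, against 2.64% of all genes called, 1.88% as higher and 0.76% as lower. Lcn2 and C3 were higher without overlap and none was lower so (3.09% and 3.88% of all genes). The medians were 1.07 and -0.01. Here the marker sums of the hosts overlapped for neutrophils (12.3 to 25.3 CPM in BALB/c and 7.8 to 26 in NSG) and for lung epithelium (9.5 to 71.1 and 14.9 to 39.1). Saa1, Saa2, Lcn2 and C3 were thus called higher in BALB/c at all 3 stages, as were 183 of 17774 genes (1.03%).

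**Figure D2:**
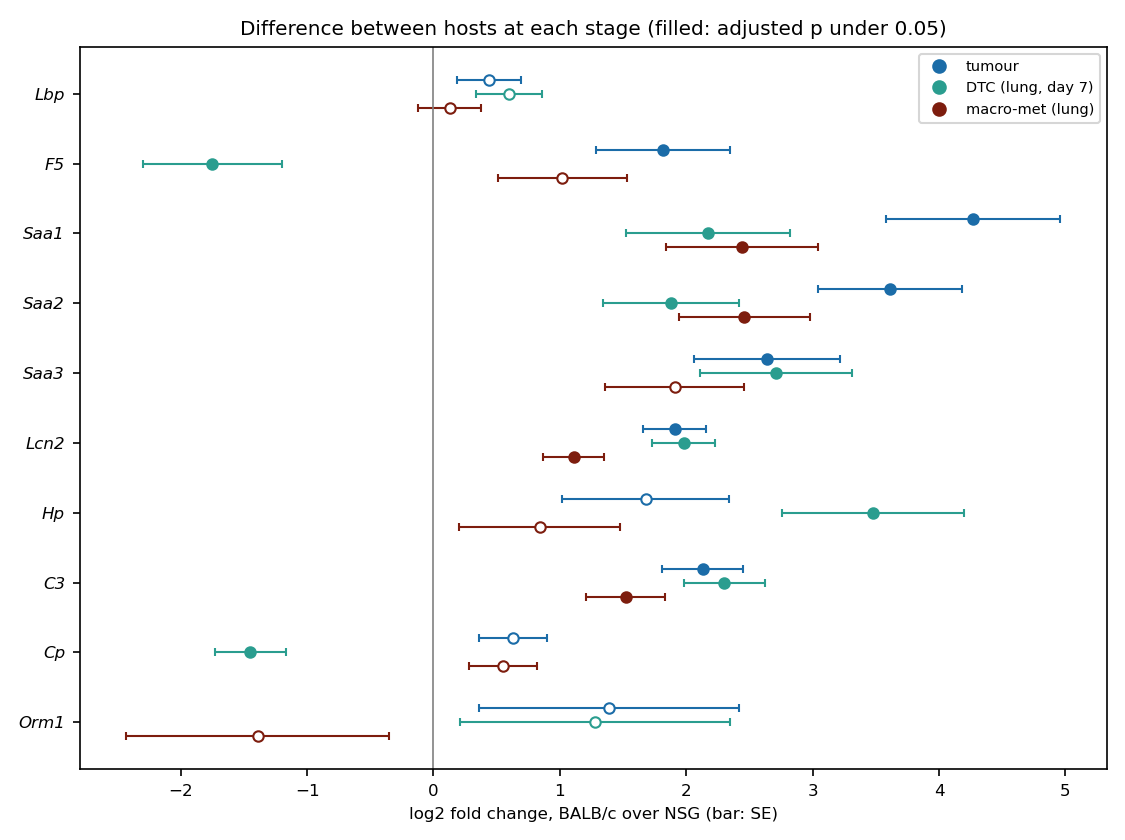
Log2 fold change of BALB/c over NSG for each gene in tumours, DTC and macro-mets; points are fitted values from 5 against 5 libraries, bars are SE and filled points have an adjusted p under 0.05. Saa1, Saa2, Lcn2 and C3 are filled and to the right at all 3 stages, from 1.11 to 4.27, while F5 and Cp lie to the left in DTC at -1.75 and -1.45.

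Between tumours and day 7 lung cells more of the genes were lower in DTC than higher. Lbp, F5 and Saa2 were picked for large rises from early to late lung cells, which favours low DTC levels. The counts below are therefore not independent of that choice. In BALB/c 6 of the 10 were called lower (Lbp, Saa1, Saa2, F5, Lcn2 and Cp) and none higher, beside 41.4% of all genes called, 20.4% as higher and 21% as lower. Without the 2 lung-rich libraries 4 were called lower, with Saa1, Saa2 and Lcn2 lost and Hp gained. With all libraries, those of Lbp, F5 and Cp did not overlap, as was true of 9.19% of all genes in that direction. In NSG mice Lbp and Lcn2 were called lower and none higher, beside 25.5% called, 16% as higher and 9.55% as lower, and the libraries of both genes did not overlap (8.45% of all genes). The medians were -1.57 in BALB/c and -0.42 in NSG mice, against -0.09 and 0.06 for all genes. The host difference of this change was called for F5 and Cp, both negative (33.4% of all genes called, 15% higher and 18.4% lower), and the values for Saa1 (-2.11 ± 0.91, adjusted p = 0.076) and Saa2 (-1.73 ± 0.75, adjusted p = 0.0789) missed the threshold. Saa1 passed it on log2(TPM + 1) (-1.75, adjusted p = 0.0261) and log2(TPM + 0.1) (-2.87), with DESeq2 (-2.14, adjusted p = 0.0494) and without NSG tumour replicate 4 (-2.65) or BALB/c DTC replicate 4 (-2.75). Saa2 passed it on log2(TPM + 1) (-1.68), with offsets for GC content and length (-1.98), in a fit of only these 4 groups (-1.64) and without BALB/c DTC replicate 5 (-2.07) or NSG DTC replicate 5 (-1.94). A sum of 10 fibroblast markers moved in the same direction, being 276 to 860 CPM in tumours against 96.3 to 208 in DTC of BALB/c mice, and 265 to 374 against 157 to 211 in NSG mice, and its part was not tested.

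In macro-mets against tumours more of the genes rose than fell. The pick of Lbp, F5 and Saa2 favours high macro-met levels, so these counts are not independent of it. In BALB/c 5 were called higher (Lbp, Saa1, Saa2, Saa3 and F5) and 2 lower (C3 and Cp), with 37.8% of all genes called, 19.6% higher and 18.2% lower. In NSG mice 7 were called higher (the same 5 with Lcn2 and Hp) and none lower, with 30.5% of all genes called, 16.9% as higher and 13.6% as lower. For 6 of these in NSG mice, and for Lbp alone in BALB/c, the libraries did not overlap, as was true of 14.8% and 13.6% of all genes. No member was lower without overlap (10.7% and 9.66% of all genes). No host difference of this change was called by edgeR, DESeq2 or limma voom among the 10 genes, 2 of which had an unadjusted p under 0.05, beside 5.23% of all genes called, 3.53% higher and 1.7% lower. The fibroblast sum was 373 to 590 CPM in BALB/c and 489 to 598 in NSG macro-mets. By gene, 3 of its 10 markers were higher and 6 lower than in tumours in BALB/c (median -1.31), and 3 higher and none lower in NSG mice (median 0.52). The mammary tumour cell sum was 4580 to 6970 CPM in BALB/c macro-mets, and 5390 to 6180 in NSG macro-mets against 8600 to 9060 in NSG tumours. Of its 8 markers, 4 were lower in BALB/c and 7 in NSG mice, and none was higher. The lung epithelium sum was 9.5 to 71.1 CPM in BALB/c and 14.9 to 39.1 in NSG macro-mets, above the 1.66 to 5.59 of tumours. The part of these in the changes was not tested.

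**Figure D3:**
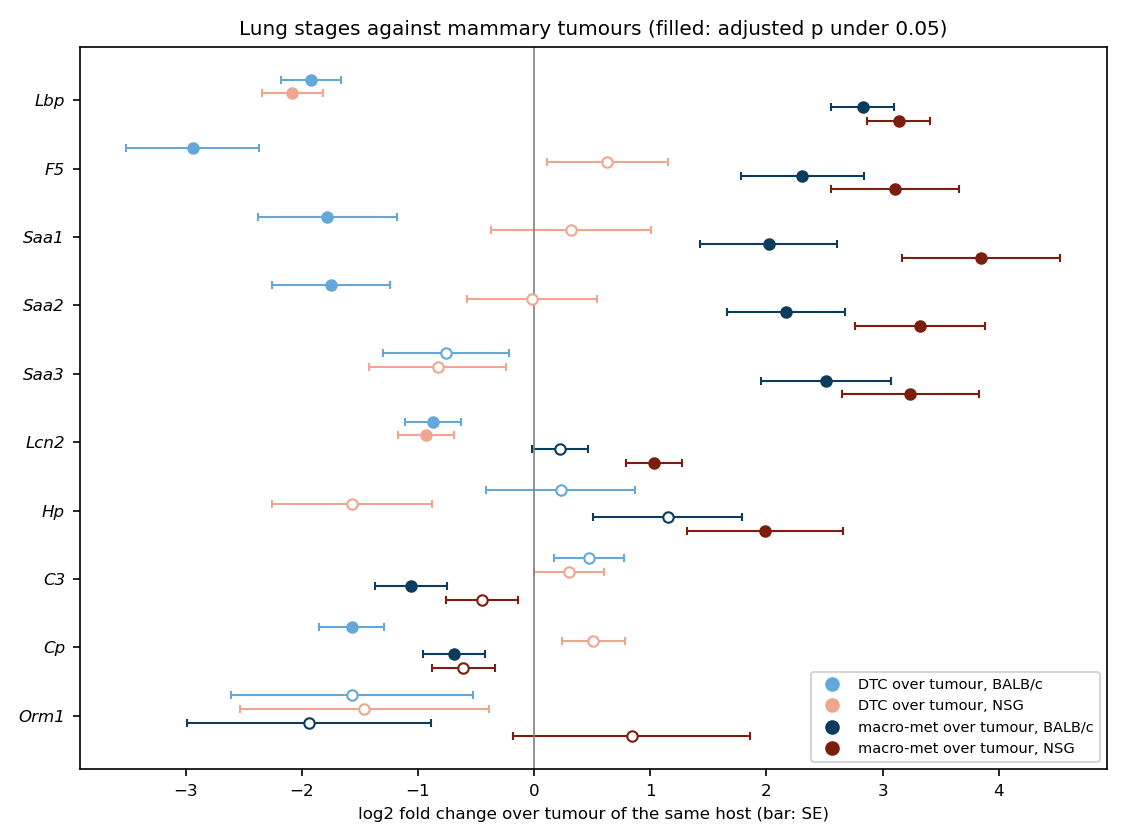
Log2 fold change over tumours of the same host for DTC and macro-mets; points are fitted values from 5 against 5 libraries, bars are SE and filled points have an adjusted p under 0.05. Lbp lies at -1.92 and -2.08 in DTC and at 2.83 and 3.14 in macro-mets, and F5 in BALB/c DTC lies at -2.94 while the NSG value is 0.63.

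The comparison of macro-mets with DTC, by which the genes came to attention, is given without a test. In BALB/c Lbp was higher in macro-mets by 4.75 ± 0.30, F5 by 5.25 ± 0.62 and Saa2 by 3.92 ± 0.56, and in NSG mice the values were 5.23 ± 0.30, 2.48 ± 0.54 and 3.34 ± 0.56. Saa1 (3.8 and 3.53), Saa3 (3.27 and 4.07) and Lcn2 (1.09 and 1.96) were higher in both hosts as well, and C3 was lower (-1.53 and -0.75). Hp was higher by 0.92 in BALB/c, or 3.03 without the 2 lung-rich libraries, and by 3.56 in NSG mice. For Cp the values were 0.88 in BALB/c and -1.12 in NSG mice. In all, 6 genes were past 2-fold higher and 1 lower in BALB/c (8.85% and 13.8% of all genes), and 8 and 1 in NSG mice (11.5% and 19.6%). The libraries did not overlap for 5 genes higher and 1 lower in BALB/c (12.6% and 10.1% of all genes) and for 7 and 1 in NSG mice (17.3% and 20.3%).

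In some groups 1 library held the highest or lowest level for most of the genes, and in others these were spread. BALB/c macro-met replicate 4 held the highest level of its group for 9 of the 10 genes, and replicate 1 the lowest for 7. NSG macro-met replicate 4 held the highest for 7, NSG DTC replicate 1 for 8, NSG tumour replicate 2 the lowest for 7 and BALB/c tumour replicate 4 for 6. In BALB/c tumours and BALB/c DTC no library held the highest level for more than 4 genes. BALB/c tumour replicate 4 had the highest fibroblast sum of all libraries, 860 CPM, and the highest Ptprc, 6.62 CPM. It also had the fewest genes with a count of all libraries, 17517, and NSG tumour replicate 2 had the fewest of its group, 18593. The part of these traits in the ranks was not tested. BALB/c macro-met replicates 1 and 4 were both taken at day 21. Over all 30 libraries log2 CPM correlated at r = 0.949 for Saa1 with Saa2, 0.969 for Saa2 with Saa3, 0.868 to 0.894 for the Saa genes with Lcn2, and 0.753 for Lbp with Saa2. C3 ran with none of them as closely (0.487 with Lcn2, -0.274 with Lbp). These r describe libraries that share groups and depth.

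**Figure D4:**
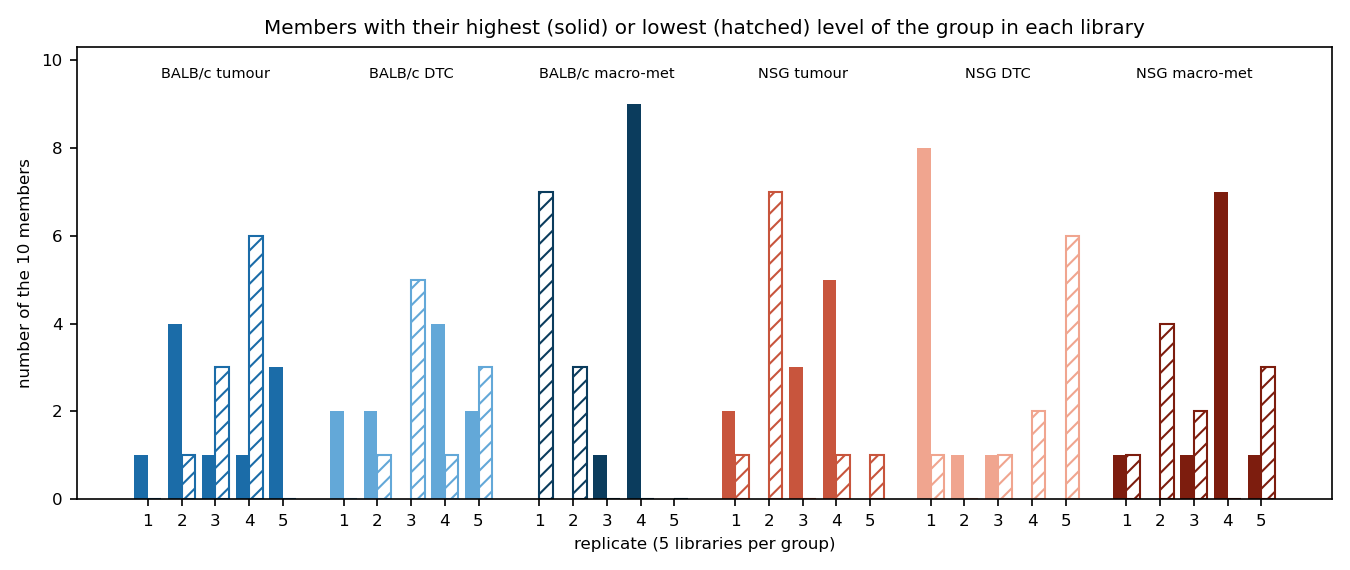
Number of the 10 genes that have their highest (solid bars) or lowest (hatched bars) level of the group in each library, by replicate within the 6 groups of 5. BALB/c macro-met replicate 4 has 9 highest and NSG DTC replicate 1 has 8.

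Genes with the most similar pattern were sought among the 8938 tested genes whose mean log2 CPM reached 3. Over 30 libraries, Lbp was closest to Ece1, which encodes an endothelin-converting enzyme (r = 0.965), Gnao1, a G protein subunit (0.956), the growth factor receptor gene Fgfr1 (0.954), Sardh, a mitochondrial dehydrogenase (0.947), and Pdgfrb, a platelet-derived growth factor receptor (0.939). F5 was closest to the ephrin gene Efna5 (0.921), Pdgfra (0.897), Tgfbr3 (0.885), Gbe1 (0.875) and Cyp1b1 (0.866). Saa2 was closest to the complement gene C4b (0.943), Xdh, xanthine dehydrogenase (0.941), H2-M3 (0.907), Lcn2 (0.894) and Stard5 (0.891). Pdgfra and Pdgfrb are also on the fibroblast marker list, of which 6 of 10 genes were lower and 3 higher in BALB/c macro-mets than in tumours. In NSG macro-mets 3 of its genes were higher and none lower (median 0.52). The part of fibroblasts in these patterns was not tested.

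Among the genes that induce the acute phase, Il6 itself was scarce and never called, with group means of 0.279 to 0.973 CPM and 0 counts in some libraries. Of 32 tested genes of inducers and signalling, 12 were higher and 6 lower in BALB/c macro-mets than in tumours, and 11 and 6 in NSG mice, with a median change of 0.21 in both hosts against -0.03 and 0.02 for all genes. In these 2 comparisons 19.6% of all genes were called higher and 18.2% lower in BALB/c, and 16.9% and 13.6% in NSG mice. Il6ra, the interleukin-6 receptor, rose in both (1.08 ± 0.13 and 0.68 ± 0.13), as did Stat3 (0.45 ± 0.14 and 0.82 ± 0.14) and Socs3 (0.96 ± 0.23 and 1.26 ± 0.23), the feedback inhibitor that STAT3 induces (largest adjusted p = 0.0098). Cebpd, an acute phase transcription factor, rose in NSG macro-mets (1.93 ± 0.38, adjusted p = 0.000361), was 0.23 ± 0.36 in BALB/c macro-mets (adjusted p = 0.655) and was higher in BALB/c than in NSG tumours (1.76 ± 0.38, adjusted p = 0.00101). From tumour to DTC, 7 of the 32 genes were higher and 8 lower in BALB/c (all genes 20.4% and 21%), and 6 and 3 in NSG mice (16% and 9.55%). Stat3 was lower in BALB/c DTC (-0.48 ± 0.14, adjusted p = 0.00522). Socs3 (-1.05 ± 0.23, adjusted p = 0.00111) and the C/EBP gene Cebpb (-0.56 ± 0.19, adjusted p = 0.0263) were lower in NSG DTC. Tnf was highest in DTC. It stood at 50.6 to 116 CPM in BALB/c DTC and 26.9 to 37.7 in NSG DTC, against 1.88 to 12.5 in tumours, and rose by 3.67 ± 0.36 (adjusted p = 4.99e-09) and 2.13 ± 0.34 (adjusted p = 3.95e-05). Il1a rose in DTC as well (1.66 ± 0.46, adjusted p = 0.00457, and 2.35 ± 0.48, adjusted p = 0.000556) and fell in BALB/c macro-mets (-2.6 ± 0.49, adjusted p = 0.000141). Osmr also fell in BALB/c macro-mets (-0.93 ± 0.27, adjusted p = 0.00791), and Nfkbiz, a cofactor of NF-kB, in NSG macro-mets (-1.03 ± 0.30, adjusted p = 0.01). Osmr, the oncostatin M receptor, fell from tumour to DTC in BALB/c (-2.25 ± 0.28, adjusted p = 3.31e-07) with a called host difference of the change (-2.30 ± 0.38, adjusted p = 4.16e-05).

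Of 19 tested other acute phase proteins, 5 were higher and 2 lower in BALB/c macro-mets than in tumours (all genes 19.6% and 18.2%) and 9 and 2 in NSG mice (16.9% and 13.6%). Serpina3n, a protease inhibitor of the acute phase, was among the latter 9 (2.26 ± 0.77, adjusted p = 0.0274). Crp and Saa4 had no count in any library, and albumin (Alb) had none in 29 of 30 and 3 counts in the other, so the defining hepatocyte marker was at or near 0. The fibrinogen genes Fga, Fgb and Fgg were at 0 in 28, 26 and 22 libraries. A sum of 11 hepatocyte markers was 0.0326 to 3.37 CPM over all libraries.

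In the coagulation and fibrinolysis list, no gene of 27 tested was higher in BALB/c than in NSG tumours and 11 were lower, with a median of -0.36 against 0.08 for all genes, of which 11% were higher and 12.6% lower. Procr, the protein C receptor gene, was among these 11 (-1.07 ± 0.14, adjusted p = 9.75e-07). F3, which encodes tissue factor, the starter of the cascade that F5 amplifies, fell in macro-mets (-0.87 ± 0.22, adjusted p = 0.00283, and -1.90 ± 0.23, adjusted p = 4.35e-07). Mcfd2, which with Lman1 carries factor V out of the endoplasmic reticulum, rose in macro-mets (0.57 ± 0.10, adjusted p = 3.41e-05, and 0.33 ± 0.10, adjusted p = 0.00829), while Lman1 fell in the NSG ones (-0.44 ± 0.12, adjusted p = 0.00463) and was -0.05 ± 0.12 in BALB/c. Over the list, 7 genes were higher and 2 lower in BALB/c macro-mets than in tumours (all genes 19.6% and 18.2%), and 4 and 7 in NSG mice (16.9% and 13.6%). From tumour to DTC the counts were 10 higher and 5 lower in BALB/c (20.4% and 21%) and 4 and 7 in NSG mice (16% and 9.55%).

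Of 22 tested complement genes other than C3, 6 were higher and 2 lower in BALB/c tumours than in NSG tumours (all genes 11% and 12.6%), and 5 and 1 in DTC (17.1% and 21.7%), with medians of 0.87 and 1.04 against 0.08 and -0.01 for all genes. The C4b level was 76.9 to 185 CPM in BALB/c and 10.5 to 16.1 in NSG tumours (3.32 ± 0.36, adjusted p = 8.6e-08), and it rose in NSG macro-mets (3.33 ± 0.36, adjusted p = 1.2e-07). Its change in BALB/c macro-mets was 0.79 ± 0.32 (adjusted p = 0.0547), and the host difference of this change was called (-2.53 ± 0.47, adjusted p = 0.00148). From tumour to DTC it fell in BALB/c (-1.72 ± 0.33, adjusted p = 0.000161). Cfb, complement factor B, was higher in BALB/c tumours (1.52 ± 0.44, adjusted p = 0.012) and DTC (2.62 ± 0.46, adjusted p = 3.35e-05). Between macro-mets 2 genes were higher in BALB/c and none lower (1.88% and 0.76% of all genes). In macro-mets against tumours 1 was higher and 2 lower in BALB/c (all genes 19.6% and 18.2%, list median -0.57). In NSG mice 5 were higher and 1 lower (16.9% and 13.6%, list median 0.37).

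Of 22 tested genes of lipopolysaccharide sensing and iron handling, the partners of Lbp, Lcn2, Hp and Cp, 6 were higher and 4 lower in BALB/c macro-mets than in tumours (all genes 19.6% and 18.2%) and 7 and 4 in NSG mice (16.9% and 13.6%). Cd14, to which Lbp hands lipopolysaccharide, did not follow Lbp. Its macro-met changes were -0.51 ± 0.22 (adjusted p = 0.0621) and 0.51 ± 0.22 (adjusted p = 0.0776), and it was higher in BALB/c tumours (1.40 ± 0.22, adjusted p = 2.34e-05) and DTC (1.00 ± 0.22, adjusted p = 0.000462). Tlr4, the signalling receptor, fell from tumour to DTC in BALB/c (-1.78 ± 0.34, adjusted p = 0.000103) and rose in NSG mice (1.17 ± 0.33, adjusted p = 0.009), with a called host difference of the change (-2.95 ± 0.47, adjusted p = 2.3e-05).

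Of 17 tested glucocorticoid-induced genes, with Lcn2 and Orm1 taken out of the list, 7 were higher and 2 lower in BALB/c macro-mets than in tumours (all genes 19.6% and 18.2%) and 6 and 2 in NSG mice (16.9% and 13.6%). The sensors Tsc22d3 (2.24 ± 0.22 and 2.75 ± 0.22) and Fkbp5 (1.2 ± 0.12 and 1.19 ± 0.12) rose in both hosts (largest adjusted p = 3.14e-08). In DTC against tumours 8 were higher and 3 lower in BALB/c (all genes 20.4% and 21%), where more members were lower than higher. In NSG mice 3 were higher and 3 lower (16% and 9.55%). Tsc22d3 was higher in DTC of both hosts (0.90 ± 0.21 and 0.84 ± 0.21, both called). The receptor gene Nr3c1 was lower in BALB/c DTC (-0.63 ± 0.21) and higher in NSG DTC (1.29 ± 0.22), both called. Between the hosts' macro-mets none of the 17 was higher in BALB/c and 2 were lower, among them Fkbp5 (-0.43 ± 0.12, adjusted p = 0.0459).

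The remaining marker lists give what other cells could have brought. Macrophage sums were 14.5 to 97.8 CPM in tumours and 25.1 to 76.3 in macro-mets, endothelial sums 7.43 to 27.5 in tumours, 39.3 to 453 in DTC and 12.3 to 56.5 in macro-mets. The mammary tumour cell sum in DTC was 7690 to 9980 CPM in BALB/c and 4460 to 7760 in NSG mice. Adipocyte sums were 0.806 to 20.4 CPM, platelet and megakaryocyte sums 1.16 to 9.57 and red cell sums 0.561 to 65.6 over all libraries. In bulk RNA, fewer cells that express a gene and less RNA of it per cell cannot be told apart.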

How the data were processed

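Per the submitters' processing notes, the authors used Trimmomatic 0.36 and STAR 2.5.2b with GRCm38; the counting tool, strand setting and annotation release are not given in the sources used here. The deposited table of counts per gene was the main input, and the authors' deposited TPM table served for levels per length and as an alternative unit. Gene positions are from GENCODE M21, which held 49056 of 49315 identifiers. edgeR 4.0.16 (R 4.3.3) fitted all 30 libraries with TMM scaling, filterByExpr, a mean per group and robust quasi-likelihood dispersion, leaving 17774 genes with 99.969% of counts. Totals were 29832098 to 65621525 counts per library.

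There were 9 tested comparisons and 2 without a test, adjusted over all genes tested. Alternatives were RLE scaling, no filter, DESeq2 1.42.0, limma 3.58.1 (voom, log2(TPM + 1), log2(TPM + 0.1)), offsets for GC content and exonic length, fits of only the groups compared, and leaving out each library. The fit was tested on simulated data. Members and lists were chosen with earlier results of these data known. Named were all 10 members, the 5 genes most like each of Lbp, F5 and Saa2 by Pearson r over 30 libraries, and a written choice of pathway genes. Marker lists (neutrophil, macrophage, lung epithelium, endothelium, fibroblast, adipocyte, platelet and megakaryocyte, hepatocyte, red cell, mammary tumour cell) were summed as CPM.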

Additional observations from a re-analysis of the deposited data

Results flagged for a closer look

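Of 60 sets of 5 libraries (10 genes in 6 groups), 8 had a library whose gap to the others exceeded Dixon's critical value. For normally distributed values about 1 in 20 would exceed it. CPM need not be so distributed, so the share that chance would give here is not known. Replicate 4 of NSG macro-met stood apart for Saa1 at 9.57 CPM and for Saa3 at 46.5 CPM. BALB/c DTC replicate 4 stood apart for Lcn2 at 973 CPM, and NSG tumour replicate 3 for Hp at 6.08 CPM. The other 4 were in Orm1, at low counts: BALB/c tumour replicate 4 at 1.95 CPM, BALB/c macro-met replicate 3 at 0.272, NSG DTC replicate 3 at 0.294 and NSG macro-met replicate 3 at 1.09.

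The change from tumour to DTC differed between hosts by edgeR's quasi-likelihood test for F5, at -3.57 (adjusted p = 0.000651), and for Cp, at -2.08 (adjusted p = 0.000141). F5 was picked for its rise from early to late lung cells, so its test is not independent of that choice. For both genes the BALB/c libraries fell and the NSG change was not called in the reported fit. For Cp the NSG change was called with only the libraries of the groups compared (0.44, adjusted p = 0.0254). It was -0.33 with offsets for GC content and length.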

How the results depend on the processing

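No paired analysis was possible because the labels give no replicate numbers shared between groups. With RLE scaling, no filter and DESeq2 no direction reversed, though no filter ended the calls of Saa1 between macro-mets, Cp in BALB/c macro-mets and Hp in NSG macro-mets. Leaving out a library changed the number of the 10 genes called by at most 2 in any comparison. Without the 2 lung-rich libraries it was 4 from 6 for BALB/c DTC against tumour and 7 from 8 between DTC. It moved by more than 1.5 times in 3 cases: to 4 from 2 for NSG DTC against tumour with only the libraries of the groups compared, to 3 from 8 between DTC of the hosts with limma voom, and to 4 from 2 for the host difference of the DTC change on log2(TPM + 1).

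For Hp in BALB/c DTC against tumour the direction reversed with limma voom (-0.62), log2(TPM + 1) (-0.39), log2(TPM + 0.1) (-0.49) and without the 2 lung-rich libraries (-1.88), and leaving out a library gave -0.80 to 0.52. For NSG DTC against tumour, Saa2 turned to 0.01 with GC content and length offsets, 0.06 on log2(TPM + 1) and 0 on log2(TPM + 0.1) (-0.32 to 0.18 leaving out a library), Saa1 ranged from -0.05 to 0.84, and Cp was -0.33 with the offsets. In NSG macro-met against tumour Orm1 ranged from -0.12 to 1.74.

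For the host difference of the DTC change, the offsets gave -0.03 for Lbp, -0.21 for Lcn2 and 0.03 for Orm1. On both TPM scales Lcn2 was -0.20, and Saa3 was -0.49 and -0.40, or -0.01 with limma voom. Without the lung-rich libraries Hp was -0.30 and Orm1 0.56. Leaving out a library gave -0.12 to 0.41 for C3, 0 to 0.46 for Lbp, -0.26 to 0.25 for Lcn2, -1.08 to 1.72 for Orm1 and -0.28 to 0.39 for Saa3. For the host difference of the macro-met change, Cp was 0.12 with the offsets and -0.20 to 0.10 leaving out a library, and Saa3 -1.03 to 0.17. The cause of these changes was not tested.

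Over all genes, the share of calls that were higher differed between settings that change the unit, the offsets or the test; with RLE scaling it was 58% for NSG DTC against tumour, 47.6% between DTC and 45.9% for the host difference of the DTC change. In the reported fit it was 62.6% for NSG DTC against tumour, 86.4% on log2(TPM + 1) and 30.9% with the offsets (medians 0.06, 0.17 and -0.11). Between DTC of the hosts it was 44.2%, 21.8% and 56.9%, and for the host difference of the DTC change 44.9%, 24% and 64.5%. On log2(TPM + 1) it was 63.6% against 51.8% for BALB/c macro-met against tumour. Between tumours it was 34.7% with the offsets against 46.7%, and between macro-mets 59.1% with limma voom against 71.3%. Low counts limit Orm1, and Saa1 in NSG tumours.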
